A study of Mus musculus with 2 samples.

Results

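Genes that respond to the transcriptional coactivator YAP or to transforming growth factor beta (TGF-beta) were followed in a mouse mesenchymal stem cell line labelled as lacking Dicer, the enzyme that makes microRNAs, and in its wild type counterpart. They were Ctgf, Cyr61, Ankrd1, Thbs1, Postn, Tgfbi, Skil, Smad7 and Hbegf, listed by name and matched by symbol in the authors' deposited table. All 9 were found among its 23227 symbols, and all 9 lay above the limit of 20 normalised reads (mean of both genotypes) that kept 11710 genes for testing. The wild type line (WT) was labelled Dicer f/f, the usual notation for loxP-flanked alleles, and the knockout line (KO) was labelled Dicer -/-. Both lines were immortalized and monoclonal, derived from mesenchymal stem cells of adult mice and labelled as fibroblasts too, grown in serum and lysed before confluence, and their polyA-selected RNA was sequenced. Each genotype is therefore 1 clone, and the loss of Dicer and other differences between the clones cannot be told apart.

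The labels give 1 sample per genotype, but each deposited mean resolved into whole reads of 2 libraries, called here the deeper and the shallower library of a genotype by their total reads. Totals ran from 14135422 to 15718369 reads in genes, and nothing states whether these libraries came from separate cultures, so their spread may be technical. Dicer1, the targeted gene, had 804 and 943 normalised reads in the WT libraries and 573 and 557 in the KO libraries. Its ratio, KO over WT, was 0.647 (0.6002 to 0.698; adjusted p of 0.497 per the authors' deposited table), and a sum over the whole gene does not isolate the deleted part. Of 13 mesenchymal stem cell and fibroblast markers, 12 were above the limit, and Thy1 had no reads in any of the 4 libraries. The summed levels of haematopoietic, endothelial and epithelial markers lay between 9.64 and 194 normalised reads per library.

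YAP and its relative TAZ enter the nucleus when the Hippo kinases are inactive, for example in spread cells under tension, and bind TEAD factors to switch on genes such as Ctgf, Cyr61 and Ankrd1. TGF-beta acts through receptor kinases that phosphorylate SMAD2 and SMAD3, which join SMAD4 on DNA, and it induces matrix genes as well as its own inhibitors Skil and Smad7. Both inputs meet on genes such as Ctgf, and both are active in fibroblasts that lay down or contract matrix. Dicer cuts microRNA precursors, so a line without it lacks most mature microRNAs, which pair with messenger RNAs through their seed and lower them.

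The 9 genes did not move one way in KO. Postn, Ctgf and Ankrd1 were at least 2-fold lower on their means, Tgfbi was higher, and Cyr61, Hbegf, Thbs1, Skil and Smad7 lay within 2-fold. A gene counted as higher or lower when the ratio of means, KO over WT, reached 2, or 0.5 on the low side, with a 95% counting interval (Clopper-Pearson, exact) that excluded 1. By this rule 1 of 9 members was higher and 3 were lower, against 8.92% and 8.56% of all tested genes. The authors' deposited table, at its adjusted p of 0.1, called 1 member higher and 0 lower, against 5.56% and 5.34%. Unadjusted p per that table was 0.00192 for Tgfbi, 0.0134 for Postn and from 0.237 to 0.902 for the other members. No share of all tested genes was computed for unadjusted p. limma on the 4 recovered libraries, at an adjusted p of 0.05, called 1 higher and 1 lower, against 4.61% and 4.14%. Those were Tgfbi and Postn, the only members whose KO libraries lay apart from both WT libraries (1 above and 1 below, where 30.4% and 28.8% of tested genes do so). The members' median log2 ratio was -0.56, and that of all tested genes was -0.01. In such bulk RNA, fewer cells of a type and less RNA per cell cannot be told apart. The counts turned on single libraries. Without the shallower WT library 4 members were higher and 1 was lower, beside 1104 and 1062 of all 11710 tested genes. Without the shallower KO library 1 member was higher and 5 were lower, beside 1285 and 1308 of all tested genes. Without the deeper WT library 1 member was higher and 4 were lower, beside 1342 and 1112 of all tested genes. With the deeper KO library left out 1 member was higher and 2 were lower, beside 880 and 1115. Intervals on ratios cover counting error alone and leave out the spread between libraries. The reads carry no molecular identifiers and need not be independent molecules, so the intervals may be too narrow even for counting error.

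**Figure D1:**
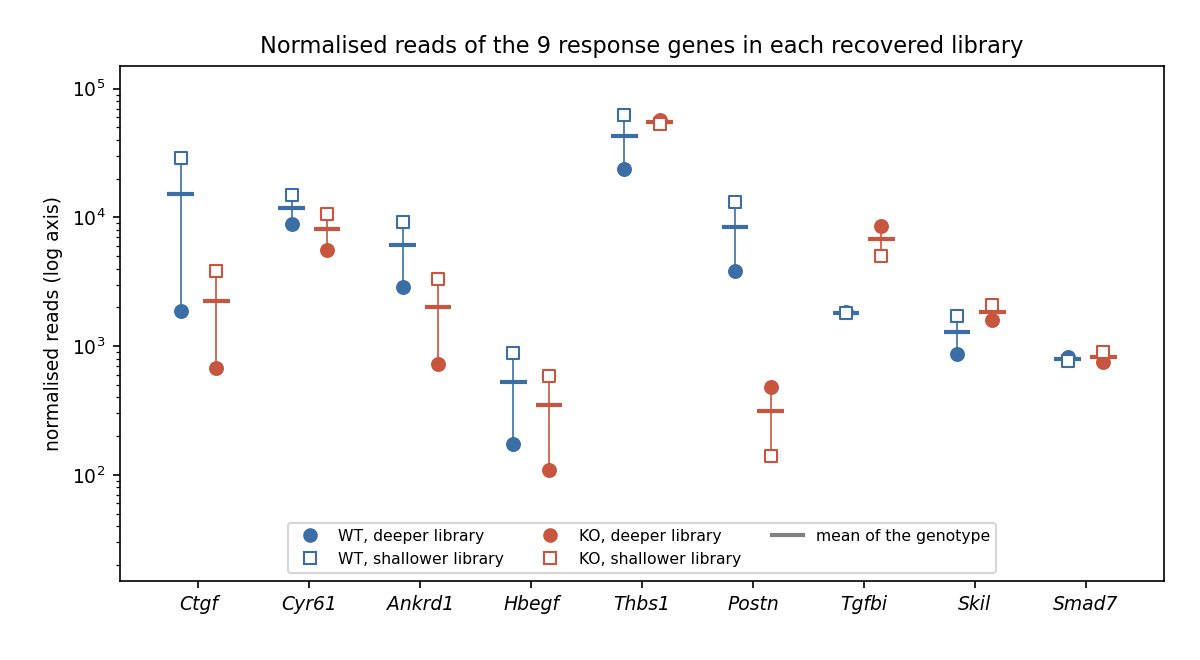
Normalised reads (log axis) of the 9 genes in each recovered library, with WT in blue and KO in red. Filled circles are the deeper and open squares the shallower library of a genotype, joined by a line, and the short bar is the genotype's mean. For Ctgf, Ankrd1 and Hbegf the squares lie far above the circles in both genotypes, whereas Postn and Tgfbi separate by genotype.

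The promoters of Cyr61 and Ankrd1 are shown first because both genes are classical TEAD targets. RefSeq (GRCm38.p6) gives them from 250 bases before to 50 after the gene's start, and capitals mark CATTCC or its reverse complement GGAATG, the core of the TEAD site. The authors' build was mm9, so these sequences carry no coordinates of the deposited data. No promoter sequence was found for Ctgf, another TEAD target, or for Thbs1 and Skil, so these were not searched. For Hbegf and Smad7 no promoter result is given either.

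Cyr61 (RefSeq Ccn1), chr3:145649936-145650235, minus strand: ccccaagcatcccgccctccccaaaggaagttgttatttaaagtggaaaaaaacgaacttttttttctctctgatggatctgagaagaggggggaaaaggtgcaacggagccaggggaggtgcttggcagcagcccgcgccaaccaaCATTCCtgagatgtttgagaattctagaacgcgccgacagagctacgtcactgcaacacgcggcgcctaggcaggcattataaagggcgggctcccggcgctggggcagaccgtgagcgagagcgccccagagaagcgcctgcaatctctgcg
Ankrd1, chr19:36119795-36120094, minus strand: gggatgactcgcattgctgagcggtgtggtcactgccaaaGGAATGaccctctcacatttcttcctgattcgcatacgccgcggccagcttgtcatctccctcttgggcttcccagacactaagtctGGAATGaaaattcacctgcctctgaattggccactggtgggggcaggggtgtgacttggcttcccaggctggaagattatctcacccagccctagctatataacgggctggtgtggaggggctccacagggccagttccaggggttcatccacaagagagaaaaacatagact

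Cyr61 held 1 such core, from base -103 to base -98 relative to the start, and Ankrd1 held 2, from -210 to -205 and from -123 to -118. The second core of Ankrd1 shares a base with a SMAD half-site, GTCTG or CAGAC. Among 32851 RefSeq promoters of the same length, 14.7% held the TEAD core and 49.6% the SMAD half-site on either strand. The promoter of Tgfbi and both promoters listed for Postn held no TEAD core. Tgfbi and Ankrd1 each had 2 SMAD half-sites, and Cyr61 and 1 of the Postn promoters each had 1. A match of letters is a description and not evidence of binding.

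Ctgf (now Ccn2), a secreted matricellular protein that promotes fibrosis, differed more between the WT libraries than between the genotypes. It had 1859 normalised reads in the deeper and 28671 in the shallower WT library, and 672 and 3826 in the deeper and shallower KO library. The shallower KO library thus lay above the deeper WT library, and the groups overlapped. On the means, 15265 in WT and 2249 in KO, the ratio was 0.147 (0.143 to 0.152), with adjusted p of 0.890 per the authors' deposited table and 0.401 in limma. Without the shallower WT library the ratio was 1.21, and it was 0.0785, 0.251 and 0.0440 without the deeper WT, the deeper KO and the shallower KO library. Between the deeper library of each genotype (the deeper pair) it was 0.362, and between the shallower ones (the shallower pair) 0.133. These pairs follow the rank within a genotype only, since the shallower KO library is nearer in total reads to the deeper than to the shallower WT library.

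Ankrd1 encodes a cardiac ankyrin repeat protein that sits at sarcomeres and in the nucleus and serves as a readout of YAP. Its normalised reads were 2851 and 9269 in the deeper and shallower WT library and 728.5 and 3298 in those of KO. Each KO library was below the WT library of the same rank, with ratios of 0.255 for the deeper and 0.356 for the shallower pair, but the shallower KO library exceeded the deeper WT library. The ratio of means was 0.332 (0.320 to 0.344), with adjusted p of 0.789 per the authors' deposited table and 0.280 in limma. It passed 0.5, at 0.706, when the shallower WT library was left out, and at 0.544 in the absence of the deeper KO library. Leaving out the deeper WT or the shallower KO library gave 0.217 and 0.120.

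Cyr61 (now Ccn1), a matricellular integrin ligand induced early by growth factors, was abundant throughout. It had 8911 and 14859 normalised reads in the deeper and shallower WT library and 5550 and 10594 in those of KO. The groups overlapped, and the ratio of means was 0.679 (0.666 to 0.693; adjusted p of 0.912 per the authors' deposited table, 0.421 in limma). Ratios in the deeper and the shallower pair were 0.623 and 0.713. It was called lower, at 0.467, without the shallower KO library.

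Hbegf encodes a membrane-bound ligand of the EGF receptor that is shed as a growth factor. Its normalised reads were 174 and 879 in the deeper and shallower WT library and 108.5 and 589 in those of KO. The shallower library of each genotype was high, and the groups overlapped. The ratio of means was 0.663 (0.601 to 0.731; adjusted p of 1.0 per the authors' deposited table, 0.754 in limma), and 0.626 and 0.670 in the deeper and the shallower pair. Single libraries moved it to either side of the rule. The ratio was 0.397 without the deeper WT library and 2.01 without its shallower counterpart. It was 1.12 when the deeper KO library was left out and 0.206 when the shallower one was.

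The gap between libraries of 1 genotype was shared by 3 members. Ctgf, Ankrd1 and Hbegf were at least 2-fold higher in the shallower library of both WT and KO, as were 0.991% of tested genes. Shallower over deeper, Ctgf was at 15.4 in WT and 5.69 in KO, Ankrd1 at 3.25 and 4.53, and Hbegf at 5.07 and 5.43. Ranked by the smaller of both ratios, Ctgf was 3rd, Hbegf 4th and Ankrd1 15th of the 11710 tested genes. Cyr61 went the same way at 1.67 and 1.91 (rank 260), and Skil at 1.99 and 1.29. Thbs1 was higher in the shallower WT library alone (2.62 in WT, 0.935 in KO). Postn went opposite ways, at 3.43 in WT and 0.292 in KO. Between the WT libraries 5 of 9 members were 2-fold or more apart, against 9.12% of tested genes, and between the KO libraries 4 of 9, against 8.91%.

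Liver genes moved with this gap. Of 18 liver markers, a list added after seeing the data, 16 were higher in the shallower library of both genotypes, and none was at 0 reads over all libraries. By the same measure it was 11 of 24 YAP/TAZ and Hippo components, 11 of 28 other YAP/TAZ targets, 6 of 21 TGF-beta components and 12 of 28 other TGF-beta response genes. The share of all tested genes was not computed for it. At 2-fold or more in both genotypes it was 10 of 18 liver markers, against 0.991% of tested genes. Their summed level was 8248 and 25796 normalised reads in the deeper and shallower WT library and 10249 and 18145 in those of KO. Albumin (Alb) alone reached 11234.5 in the shallower WT library. Hp and Cps1 were the exceptions to the shared direction. The part of these transcripts in the values of Ctgf, Ankrd1 and Hbegf was not tested.

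**Figure D2:**
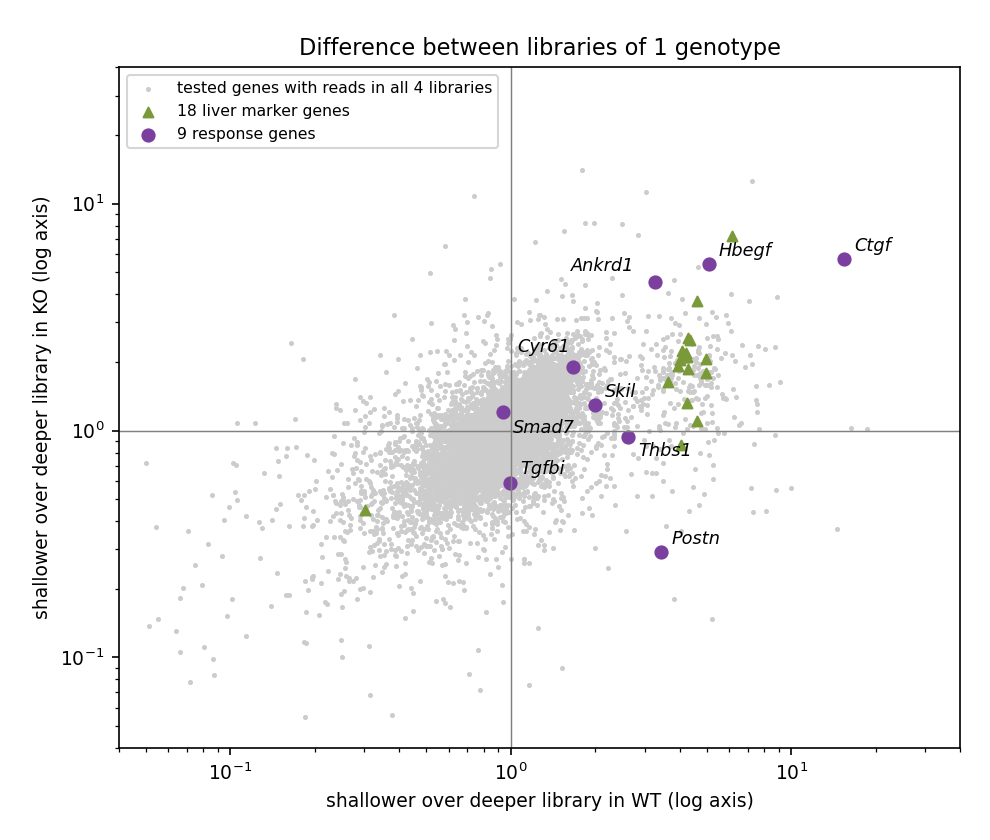
Ratio of the shallower to the deeper library in WT (horizontal log axis) and in KO (vertical log axis), each dot being 1 tested gene with reads in all 4 libraries. Purple dots are the 9 response genes and green triangles 18 liver markers. Ctgf, Hbegf and Ankrd1 lie in the upper right, at 5.69, 5.07 and 3.25 by the smaller of both ratios, and Postn lies in the lower right.

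Among the matrix genes, Postn was lower and Tgfbi higher in KO, although both encode secreted proteins built from fasciclin domains, and Thbs1 was high in both lines. Postn, or periostin, binds collagen and integrins in tissue under mechanical load. Its normalised reads were 3832 and 13143 in the deeper and shallower WT library and 481 and 140.3 in those of KO. Each KO library was under each WT library. The ratio of means, 8487 in WT and 311 in KO, was 0.0366 (0.0338 to 0.0396), or 27.3-fold lower. Its adjusted p stood at 0.145 per the authors' deposited table and at 0.0382 in limma (log2 difference -4.77, SE 0.82), so the call differed between the tests. With a library left out the ratio moved by over 1.5 times and stayed under 0.1: it was 0.0165 without the deeper KO, 0.0236 without the deeper WT, 0.0567 without the shallower KO and 0.0811 without the shallower WT library. In the deeper pair it was 0.126 and in the shallower pair 0.0107.

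Tgfbi encodes a TGF-beta-induced matrix protein that links collagen to integrins. It had 1824 and 1811 normalised reads in the WT libraries and 8524 and 5024 in the deeper and shallower KO library. The WT libraries nearly coincided and both KO libraries lay above them. Tgfbi rose 3.73-fold (3.59 to 3.87), from 1817 to 6774, with adjusted p of 0.0338 per the authors' deposited table and 0.0312 in limma (log2 difference 1.85, SE 0.29). The ratio stayed between 2.76 and 4.69 with any 1 of the 4 libraries left out.

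Thbs1 encodes thrombospondin, a matricellular protein that can activate latent TGF-beta and is itself induced by YAP and by TGF-beta. It had 23770 and 62281 normalised reads in the deeper and shallower WT library and 56638 and 52932 in those of KO. The KO libraries lay inside the range of the WT libraries. The ratio of means was 1.27 (1.26 to 1.28; adjusted p of 1.0 per the authors' deposited table, 0.591 in limma). It was 2.38 in the deeper and 0.850 in the shallower libraries, 2.30 without the shallower WT library and 0.880 without the deeper one.

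**Figure D3:**
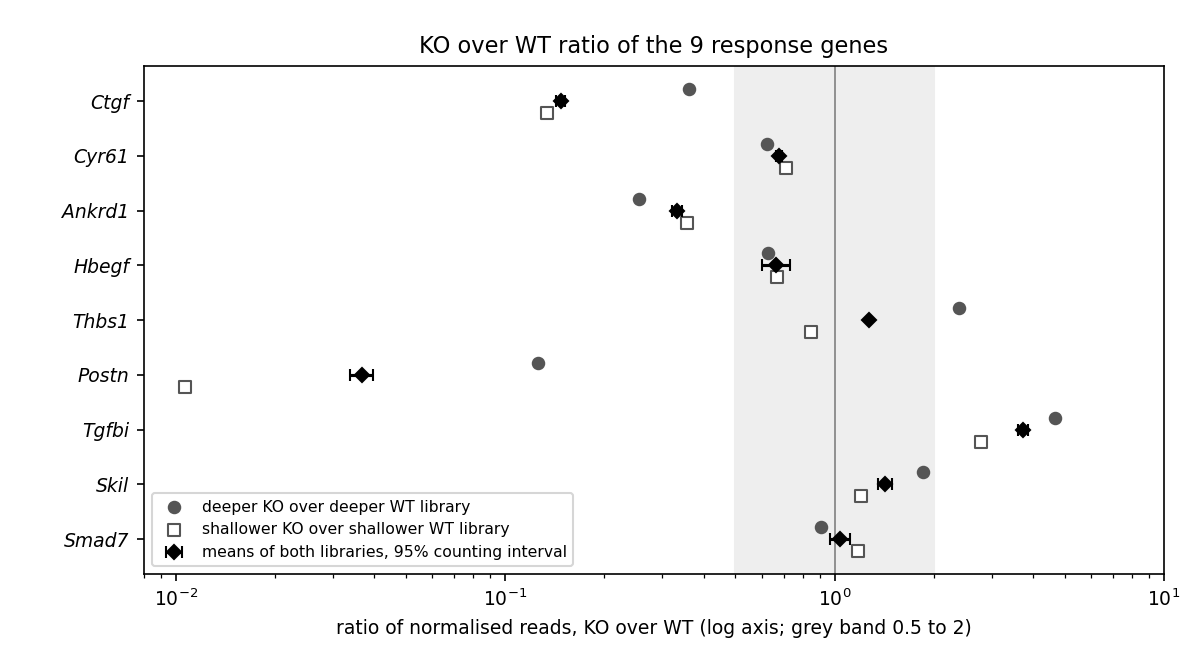
KO over WT ratio (log axis) of the 9 genes. Diamonds are ratios of means with 95% counting intervals, filled circles the deeper and open squares the shallower libraries compared with each other, and the grey band spans 0.5 to 2. Ctgf, Ankrd1 and Postn lie left of the band in both pairs and Tgfbi lies right of it, while Thbs1 spans 0.850 to 2.38.

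The SMAD inhibitors Skil and Smad7 were within 2-fold on their means. Skil encodes SnoN, which represses SMAD target genes and is degraded when TGF-beta arrives. Its normalised reads were 865 and 1720 in the deeper and shallower WT library and 1603 and 2071 in those of KO. One KO library lay inside the WT range. The ratio of means was 1.42 (1.35 to 1.496; adjusted p of 0.788 per the authors' deposited table, 0.364 in limma), 1.85 in the deeper pair and 1.204 in the shallower pair, and it passed 2, at 2.12, without the shallower WT library.

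Smad7 encodes the inhibitory SMAD that brings ubiquitin ligases to the TGF-beta receptor and is a direct early target of the pathway. It had 822 and 769 normalised reads in the deeper and shallower WT library and 749.7 and 903 in those of KO. The 4 libraries interleaved. The ratio of means was 1.04 (0.969 to 1.11; adjusted p of 1.0 per the authors' deposited table, 0.888 in limma), with a limma log2 difference of 0.05 and an SE of 0.18. It was 0.942 without the shallower KO library.

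Levels can be compared between genes only per length, here as normalised reads per kb of an annotated transcript (2019 bases for Cyr61 to 6717 for Skil). In WT the order by mean was Thbs1 at 7357, Ctgf at 6366, Cyr61 at 5886, Ankrd1 at 3000, Postn at 2648, Tgfbi at 670, Hbegf at 222, Skil at 192 and Smad7 at 186 reads per kb. Between neighbours in this order the WT libraries did not overlap only for Postn and Tgfbi and for Tgfbi and Hbegf. Ctgf ran from 775 to 11956 reads per kb, so its place in WT is not fixed. In KO Thbs1 led at 9368 reads per kb, above Cyr61 at 3998, Tgfbi at 2496, Ankrd1 at 997, Ctgf at 938, Skil at 273, Smad7 at 193, Hbegf at 147 and Postn at 96.9. The KO libraries did not overlap for the neighbours Thbs1 and Cyr61, Tgfbi and Ankrd1, and Skil and Smad7.

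Sites for microRNAs were searched because Dicer makes them. The 3' UTR of each gene was scanned for 7 bases complementary to seed positions 2 to 8 of 18 families, with sequences from GENCODE transcripts and mature microRNAs from RefSeq (GRCm38.p6). All 9 members held at least 1 site, as did 76.5% of 11314 tested genes with a 3' UTR. Sites numbered 7 in Skil (3' UTR of 3964 bases), 4 each in Ctgf, Thbs1 and Smad7, 3 in Tgfbi, 2 each in Cyr61, Postn and Hbegf, and 1 in Ankrd1, and the median 3' UTR of tested genes had 1112 bases. A miR-15/16 site, found in Ctgf, Thbs1, Skil and Smad7 and in 24.3% of the scanned 3' UTRs, was the most widely carried of the 18 families among the members. The sequences below are a selection, chosen because miR-18, miR-19 and miR-21 each have sites in several members and let-7 in Skil. Capitals mark the seed in a microRNA and its complement in a transcript.

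mmu-miR-18a-5p: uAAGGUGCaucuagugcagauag
Ctgf, miR-18 site: aaaagttacatgtttGCACCTTt
Thbs1, miR-18 site: accagcgctggcaatGCACCTTc
mmu-miR-19b-3p: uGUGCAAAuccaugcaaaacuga
Ctgf, miR-19 site: accaaaagttacatgTTTGCACc
Postn, miR-19 site: ccatacagctaagtcTTTGCACa
Skil, first of 3 miR-19 sites: tggggaagggcagccTTTGCACt
mmu-miR-21a-5p: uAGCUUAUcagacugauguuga
Tgfbi, miR-21 site: agaaacggcatcactATAAGCTa
Postn, miR-21 site: ctcgagatgattgtcATAAGCTt
mmu-let-7a-5p: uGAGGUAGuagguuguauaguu
Skil, let-7 site: acacaaaactgtcctCTACCTCa

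A miR-18 site occurred in Ctgf and Thbs1 and in 9.01% of the scanned 3' UTRs. In Ctgf it overlaps the miR-19 site, since their first bases are 1025 and 1022 of the 3' UTR. A miR-19 site occurred in Ctgf, Postn and Skil and in 13.2% of 3' UTRs. A miR-21 site occurred in Tgfbi, Postn and Smad7 and in 7.65%, and a let-7 site in Skil alone of the members and in 10.1%. Ratios of means, KO over WT, are given here by family as a description. Of the miR-21 carriers, Tgfbi was 3.73-fold higher, Postn 27.3-fold lower and Smad7 at a ratio of 1.04. Of the miR-19 carriers, Skil was at 1.42, Ctgf at 0.147 and Postn at 0.0366. Of the miR-15/16 carriers, Skil was at 1.42, Thbs1 at 1.27, Smad7 at 1.04 and Ctgf at 0.147. Both miR-30 carriers, Cyr61 at 0.679 and Ankrd1 at 0.332, were below 1. The carriers of miR-17 (Skil and Smad7) and of miR-199a-3p (Thbs1 and Skil) were above 1 on their means, but within 2-fold. The counting interval of Smad7, 0.969 to 1.11, included 1, and Thbs1 was at 0.880 without the deeper WT library. Carriers of miR-18 (Ctgf at 0.147, Thbs1 at 1.27) and of miR-22 (Cyr61 at 0.679, Thbs1 at 1.27) lay on both sides of 1. The part of microRNA loss in these values was not tested.

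The machinery upstream of YAP targets held called genes in both directions. Of 24 YAP/TAZ and Hippo components, 1 passed the rule upward, 3 downward and 20 not at all, with a median log2 ratio of 0.08, where 8.92% of all tested genes were higher and 8.56% lower. The authors' deposited table called 1 higher and 2 lower, against 5.56% and 5.34% of all tested genes. Yap1 was at a ratio of 0.697 and Wwtr1, which encodes TAZ, at 1.28, with adjusted p of 0.621 and 0.873 per the authors' deposited table. The kinase genes Lats1 and Lats2 were at 0.984 and 1.23. Among the TEAD factors that carry YAP to DNA, Tead1, Tead2 and Tead3 were at 1.0998, 0.652 and 0.879. Tead4 rose 18.2-fold, from 24.7 (20.2 and 29.1) to 448.5 (359 and 538) normalised reads (adjusted p of 1.18e-08 per the authors' deposited table). Vgll3, a TEAD cofactor, fell 6.01-fold, and Amotl2, a scaffold that restrains YAP and is itself a YAP target, fell 3.53-fold (adjusted p of 1.10e-04 and 1.46e-05 per the authors' deposited table). Frmd6, which acts upstream of the kinases, was 2.07-fold lower with adjusted p of 0.457 per the authors' deposited table, and its ratio was 0.659 without the shallower WT and 0.605 without the deeper KO library. Without the deeper WT library 2 components were higher.

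Other YAP/TAZ targets split evenly. Of 26 tested genes of 28 listed, 6 were higher, 6 lower and 14 neither, with a median log2 ratio of -0.05, where all tested genes gave 8.92% higher and 8.56% lower. The authors' deposited table called 3 higher and 6 lower, against 5.56% and 5.34%. Edn1, the vasoconstrictor endothelin, had 398 and 1526 normalised reads in the deeper and shallower WT library and 3.68 and 10.9 in those of KO. That is 132-fold lower (adjusted p of 0.0463 per the authors' deposited table), and 54.4-fold, 209-fold and 261-fold lower without the shallower WT, the deeper WT and the shallower KO library. Edn1 shared the gap between libraries, at 3.83 in WT and 2.98 in KO, the only 1 of the 26 with at least 2-fold in both. Fjx1, a secreted regulator of planar polarity, fell 7.88-fold from 38.3 to 4.86 (adjusted p of 0.0263 per the authors' deposited table, 0.0570 in limma). Without the shallower KO library it fell 13.9-fold. The RNA-binding protein gene Rbms3 fell 3.36-fold (adjusted p of 2.56e-04 per the authors' deposited table), and Amotl2 is counted here too. Tgm2, a transglutaminase that cross-links matrix, rose 27.4-fold from 153 to 4205 (adjusted p of 2.34e-28 per the authors' deposited table), and 42.3-fold without the shallower WT library. F3, tissue factor, rose 4.59-fold (adjusted p of 0.0175 per the authors' deposited table). The EGF family ligand Ereg was 5.01-fold higher (3.20-fold without the shallower KO library) and the growth arrest gene Gadd45a 3.08-fold, with adjusted p of 0.146 and 0.260 per the authors' deposited table. Their adjusted p in limma was 0.0491 and 0.0949.

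TGF-beta components include the ligands, receptors and SMADs. Of 21 genes 1 was higher, 2 were lower and 18 neither, with a median log2 ratio of 0.12, again against 8.92% and 8.56% of all tested genes. The authors' deposited table called 1 higher and 1 lower, against 5.56% and 5.34%. The ligand gene Tgfb1 was at 1.46, the receptor genes Tgfbr1 and Tgfbr2 at 1.45 and 1.61, and Smad2, Smad3 and Smad4 at 1.397, 0.775 and 1.09. The co-receptor gene Tgfbr3 rose 4.28-fold from 1641 (2327 and 955) to 7023 (9002 and 5043). Its adjusted p was 0.0742 per the authors' deposited table and 0.0710 in limma. Without the deeper WT library it rose 7.35-fold. Bambi, a decoy receptor, fell 5.65-fold from 101 to 17.9 (adjusted p of 0.00143 per the authors' deposited table), and 8.48-fold without the deeper KO library. Smad6, the other inhibitory SMAD, was 2.66-fold lower with WT libraries at 1895 and 671.5 (adjusted p of 0.690 per the authors' deposited table), and at a ratio of 0.720 without the deeper WT library, which left 1 component lower.

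Further TGF-beta response genes were split as well, and the contractile genes Acta2 and Tagln lay at the low end. Of 27 tested genes of 28 listed, 4 were higher, 7 lower and 16 neither, with a median log2 ratio of 0.03, beside 8.92% and 8.56% of all tested genes. Bambi, counted as lower, and Tgif1 and Ski, counted as neither, are also among the TGF-beta components above. The authors' deposited table called 4 higher and 5 lower, beside 5.56% and 5.34%. Acta2, smooth muscle actin, fell 67.8-fold from 41324 to 610 and Tagln, transgelin, 79.2-fold from 5723 to 72.3 (adjusted p of 3.88e-10 and 0.00484 per the authors' deposited table). Both are also smooth muscle markers, and the 3 tested of 4 such markers were all lower in KO, their sum falling from 35698 and 62016 normalised reads in the WT libraries to 634 and 741 in those of KO. Leaving out the shallower library changed the fall of Tagln to 43.6-fold in the case of WT and to 124-fold in the case of KO. Nox4, which makes hydrogen peroxide, fell 14.0-fold (6.86 to 33.4; adjusted p of 5.90e-04 per the authors' deposited table). It was low throughout, with 44 and 59 reads in the deeper and shallower WT library and 3 and 5 in those of KO. Ltbp2, a binding protein of elastic fibres, fell 11.9-fold (adjusted p of 0.0531 per the authors' deposited table), and 7.21-fold without the shallower WT library. Bhlhe40, a circadian repressor, rose 4.23-fold (adjusted p of 1.45e-06 per the authors' deposited table). Junb, an AP-1 subunit, and the collagen gene Col5a1 rose 2.39-fold and 2.20-fold (adjusted p of 0.0107 and 0.0180 per the authors' deposited table). D18Ertd653e (now Ldlrad4), an inhibitor of SMAD activation, rose 2.40-fold (adjusted p of 0.0315 per the authors' deposited table). In limma the adjusted p was 0.0194 for Bhlhe40, and 0.0665, 0.0750 and 0.0840 for Junb, Col5a1 and D18Ertd653e. The ratios of these last 3 fell under 2 without a WT library: Junb was at 1.88 without the shallower, and Col5a1 and D18Ertd653e at 1.95 and 1.90 without the deeper.

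**Figure D4:**
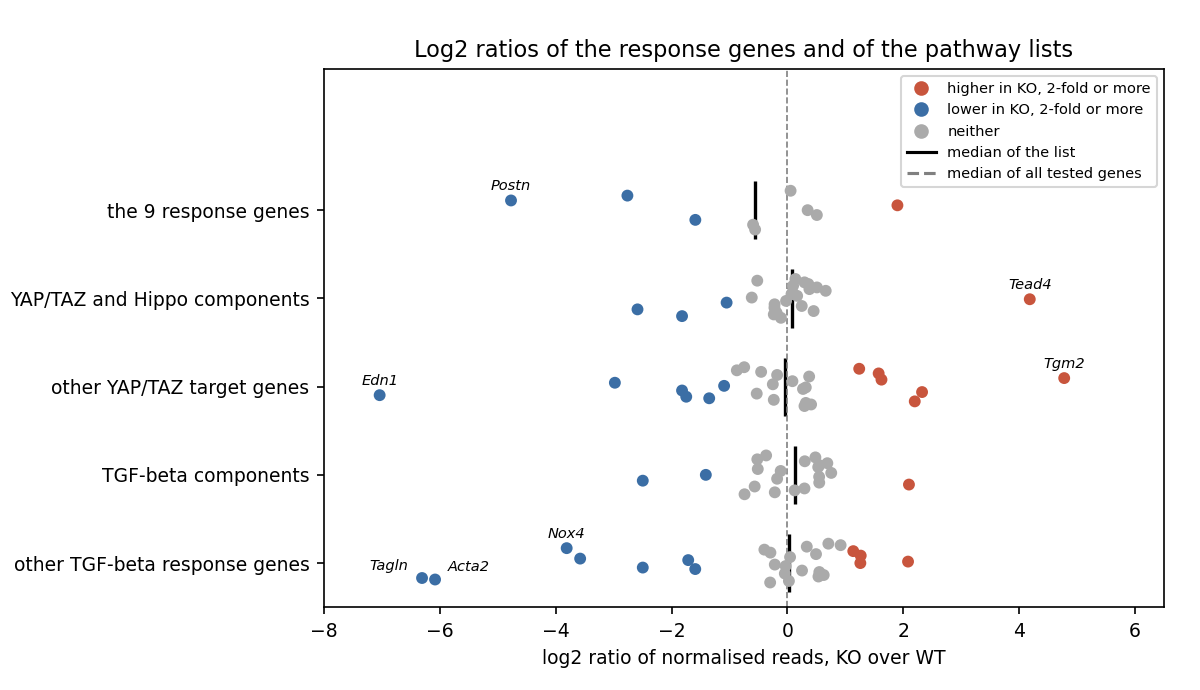
Log2 ratio, KO over WT, of the 9 response genes and of the tested genes of 4 pathway lists. Each dot is 1 gene, red or blue where it was at least 2-fold higher or lower in KO and grey otherwise. Black bars are list medians, from -0.56 for the 9 genes to 0.12 for TGF-beta components, and the dashed line is the median of all tested genes.

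Relatives and a receptor of the members were taken from lists of their families, members included. Among tested genes, 1 of 5 CCN genes, 1 of 4 thrombospondins and 1 of 3 ANKRD genes were higher in KO, and 1 of each lower. Of 6 tested EGF ligands and receptors, 2 were higher and 0 lower. All tested genes gave 8.92% higher and 8.56% lower. In the CCN family of matricellular proteins, Wisp2 (now Ccn5) rose 4.999-fold from 361 to 1806 (adjusted p of 1.38e-05 per the authors' deposited table, 0.0750 in limma). Its ratio was 11.6 and 3.19 without the deeper and the shallower WT library. Wisp1 was at 0.732 and Nov at 0.580, and Wisp1 was called lower at 0.476 without the shallower KO library. Nov had 265 and 26.9 normalised reads in the deeper and shallower WT library and 143.5 and 25.9 in those of KO, a gap opposite to that of Ctgf, and its call changed with the library left out. Ankrd23 was at 0.685, on the same side of 1 as Ankrd1. Nrg1, a ligand of the ERBB receptors, was at 0.509, on the same side as Hbegf. It was called lower at 0.413 without the shallower WT and at 0.334 without the shallower KO library. The other tested ligands went the other way, Ereg at 5.01 and Egf, low in both lines (14.5 and 28.3 normalised reads), at 1.95. Ankrd2, the muscle relative of Ankrd1, had 5 reads in the deeper and 0 in the shallower WT library and rose to 73.4 normalised reads, a ratio of 30.5 (12.8 to 95.2; adjusted p of 2.35e-06 per the authors' deposited table) that was 15.2 without the shallower WT library and is not defined without the deeper one, where WT had 0 reads. Egfr, the receptor of Hbegf, rose 5.30-fold from 256 to 1358 (adjusted p of 0.0555 per the authors' deposited table). Thbs2 and Thbs3, relatives of Thbs1, were at 0.551 and 3.06 (adjusted p of 0.170 and 0.200 per the authors' deposited table), and Thbs2 was called lower at 0.365 without the deeper KO library. The thrombospondin called lower was Comp at 0.357, with a mean of 21.2 normalised reads, near the limit of 20. It had 51 and 12 reads in the deeper and shallower WT library and 20 and 4 in those of KO, which overlapped (adjusted p of 0.386 in limma). Its call was lost at 0.832 without the deeper WT and at 0.588 without the shallower KO library.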

How the data were processed

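Messenger RNA of 1 WT and 1 KO sample, as labelled, was sequenced as polyA-selected libraries. TopHat 1.4.0, DESeq 1.10.1 and build mm9 appear in the submitters' processing notes without role or order, and the sources used here do not give the read counter. The authors deposited a DESeq comparison, per the file headers, with, as a signal per gene, mean read counts divided by size factors. The authors also deposited the fold (a ratio of KO over WT), its log2 value, p-values and adjusted p-values, which were copied. The title of the comparison names WT before KO, so the first condition was taken as WT, and all directions depend on that order.

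Each genotype's mean was a sum of whole multiples of 2 steps. In WT (16386 genes above 0) and KO (16350), for 100.0% exactly 1 pair of whole reads gave the mean (tolerance 2e-08 reads, widened to floating-point precision for the largest means), and recomputed size factors matched. Ratios, intervals and limma 3.58.1 (R 4.3.3, trend, log2 of normalised reads + 1) were then computed over 11710 genes, after tests on simulated data. The limma fit was an alternative to a plan that assumed 1 sample per genotype. Transcript and 3' UTR sequences came from the GENCODE M21 transcript with the longest 3' UTR among those with at least 90% of the gene's longest coding sequence.

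The members and lists were chosen with earlier results of these data known, and the liver list after seeing them. All members were named. From each list up to 4 called genes per direction were named, with a fixed set of regulators, and a few relatives. A result for 1 listed gene is not reported here. Alternatives were library totals, each library left out, pairs by rank of total reads, other thresholds and filters, and other pseudocounts.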

Additional observations from a re-analysis of the deposited data

How the results depend on the processing

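With 2 libraries per genotype, 1 library can decide a ratio. Hbegf had the fewest reads of the members in the deeper libraries, 118 in KO and 180 in WT. In the shallower libraries it had 592 and 784 reads. With each library left out in turn, ratios ran from 0.0440 to 1.21 for Ctgf, 0.467 to 0.906 for Cyr61, 0.120 to 0.706 for Ankrd1, 0.206 to 2.01 for Hbegf, 0.880 to 2.30 for Thbs1, 0.0165 to 0.0811 for Postn, 2.76 to 4.69 for Tgfbi, 1.07 to 2.12 for Skil and 0.942 to 1.13 for Smad7. Counts of members ran from 1 to 4 higher and 1 to 5 lower, and those of all tested genes from 880 to 1342 and from 1062 to 1308. Counts higher and lower ran from 1 to 2 and 2 to 3 for YAP/TAZ and Hippo components, 5 to 6 and 6 to 8 for other YAP/TAZ targets, 1 to 1 and 1 to 2 for TGF-beta components, and 3 to 5 and 6 to 7 for other TGF-beta response genes.

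In limma, Ctgf and Ankrd1 lost their calls at ratios of 0.220 and 0.302, with either pseudocount (adjusted p from 0.280 to 0.401). In the deeper pair 2 members were higher, Tgfbi and Thbs1 (2.38), and Smad7, called neither, was at 0.912. In the shallower pair Thbs1 was at 0.850 and 1 TGF-beta component was lower. Members called lower numbered 0 by the authors' adjusted p at 0.1 or 0.05 and 1 by limma. Of all tested genes, 2030 were higher and 2092 lower at a ratio of 1.5, 651 and 625 at the authors' adjusted p of 0.1, 525 and 504 at 0.05, and 540 and 485 in limma. Without a filter 1577 were lower, and 622 with a filter at 100.

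At a ratio of 1.5, 2 of 24 YAP/TAZ and Hippo components were higher and 4 lower, and 3 and 3 of 21 TGF-beta components. Of 27 other TGF-beta response genes 7 were higher and 7 lower. All 11710 tested genes gave 2030 higher and 2092 lower at this ratio. The authors' adjusted p gave 3 other YAP/TAZ targets higher at 0.1 and at 0.05, 1 TGF-beta component lower at both, and at 0.05 0 TGF-beta components higher and 4 other TGF-beta response genes lower. limma gave 0 TGF-beta components higher and 1 lower, and 2 other TGF-beta response genes higher. Library totals in place of size factors changed no member's call. The cause of these differences was not tested. No paired analysis was possible because the labels give no replicate numbers, and the rank by total reads that defines the deeper and the shallower pair does not pair samples.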

Other observations

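Transcripts of liver cells were present in every library of these mesenchymal lines. Alb, encoding albumin, had 2708 and 11234.5 normalised reads in the deeper and shallower WT library and 4083 and 8605 in those of KO. The 18 liver markers made up 0.0557% of reads in the deeper and 0.163% in the shallower WT library, and 0.0709% and 0.122% in the deeper and shallower KO library. None of the 18 was called higher or lower in KO, and 10 of 18 were at least 2-fold higher in the shallower library of both, against 0.991% of tested genes. Among the 30 genes with the largest shared gap were liver genes such as Hamp, the hormone of iron balance (10.6 and 65.0 in WT, 8.28 and 59.7 in KO), and Fabp1, a fatty acid carrier (121 and 558 in WT, 143 and 532 in KO). Also among them was Has2, the hyaluronan synthase (220 and 1285 in WT, 94.7 and 307 in KO). The list and these genes were chosen after their values were seen, and the source of the transcripts was not tested.

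Across the 11710 tested genes, the log2 ratio of the shallower to the deeper library in WT correlated with that in KO at r = 0.571, a description across genes that share their libraries.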
